A study of Mus musculus with 27 samples.

Results

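Genes for axon guidance ligands and receptors were followed in hepatic stellate cells (HSCs) taken from mouse liver before and after injury by carbon tetrachloride (CCl4), a solvent that kills hepatocytes. The members were the protein-coding genes named as class 3 to 7 semaphorins (Sema), plexins (Plxn), neuropilins (Nrp), Slits, Robos, netrins (Ntn), Unc5 receptors, ephrins (Efn) and Eph receptors. Of 53379 genes in the count table, 67 were members, 34 of them ligands and 33 receptors, and Ntn3 was not analysed here. A total of 56 members had enough reads to be tested beside the other genes. The 11 left untested were Efna3, Epha5, Epha6, Epha8, Epha10, Ntn5, Robo3, Sema3e, Sema4f, Slit1 and Unc5d, and 4 of these never exceeded 3 counts in a library.

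All cells came from male Balb/c mice and were sorted by ultraviolet positivity, the glow of the retinoid droplets that mark an HSC, and lysed without culture. Healthy mice, aged 10 to 12 weeks, received no injection (n = 4). Acute injury was 1 intraperitoneal injection of CCl4 in mineral oil, at 0.5 µL per g body weight, in mice of 10 to 12 weeks, with cells taken after 24 h (n = 3), 72 h (n = 4) and 7 d (n = 4). Chronic injury was 8 injections at the same dose over 4 weeks in mice of 8 to 10 weeks, with cells taken 24 h, 72 h and 14 d after the last injection (n = 4 each). The controls were not injected with oil, so that the oil, the injection and the CCl4 cannot be told apart, and the chronic mice also differed from healthy mice in age at the start. In these bulk libraries, fewer cells of a type and less RNA per cell cannot be told apart either.

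Axon guidance cues were named for steering the growth cones of neurons, and they act through matched pairs of ligand and receptor. Semaphorins bind plexins, with neuropilins as partners of most secreted class 3 semaphorins. Slits bind Robos, netrins bind Unc5 receptors and DCC, and ephrins on a cell bind Eph receptors on its neighbour, with signals passing into either cell. Outside the nervous system the same families act on adhesion, migration and blood vessel growth, and HSCs express several genes otherwise associated with neural cells.

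For some of the members a promoter sequence can be shown. RefSeq lists a promoter for 58 of the 67 members, as 74 promoters in all. Of the members called most often, 4 had a single listed promoter with no GENCODE exon of their own gene in the 250 bases before the start. They are printed 5′ to 3′ on the strand of the gene, in build GRCm38.p6, with capitals marking the GC box, GGGCGG on either strand. The sequence of Plxnc1 lies at chr10:94944846-94945095 (minus strand), that of Ntn4 at chr10:93640799-93641048 (plus strand), that of Epha4 at chr1:77515089-77515338 (minus strand) and that of Nrp1 at chr8:128358823-128359072 (plus strand). The Plxnc1 and Epha4 stretches lie outside their genes, and that of Epha4 overlaps the start of the long noncoding gene Gm28386 on the other strand. Those of Ntn4 and Nrp1 lie in an intron of another annotated transcript of the same gene.
Plxnc1: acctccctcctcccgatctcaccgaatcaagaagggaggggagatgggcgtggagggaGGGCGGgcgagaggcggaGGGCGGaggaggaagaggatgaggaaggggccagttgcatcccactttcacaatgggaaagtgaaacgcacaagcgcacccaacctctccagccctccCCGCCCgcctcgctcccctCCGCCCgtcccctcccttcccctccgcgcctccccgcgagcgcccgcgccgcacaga
Ntn4: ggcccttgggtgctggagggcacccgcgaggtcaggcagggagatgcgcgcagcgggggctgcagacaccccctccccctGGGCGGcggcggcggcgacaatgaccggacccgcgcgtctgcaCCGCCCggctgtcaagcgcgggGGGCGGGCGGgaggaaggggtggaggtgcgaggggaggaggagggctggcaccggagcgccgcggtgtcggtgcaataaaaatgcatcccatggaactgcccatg
Epha4: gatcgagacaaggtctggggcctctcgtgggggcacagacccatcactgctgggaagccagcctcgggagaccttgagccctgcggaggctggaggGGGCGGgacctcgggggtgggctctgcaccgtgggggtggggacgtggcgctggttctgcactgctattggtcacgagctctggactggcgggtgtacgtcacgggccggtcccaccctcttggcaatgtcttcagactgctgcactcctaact
Nrp1: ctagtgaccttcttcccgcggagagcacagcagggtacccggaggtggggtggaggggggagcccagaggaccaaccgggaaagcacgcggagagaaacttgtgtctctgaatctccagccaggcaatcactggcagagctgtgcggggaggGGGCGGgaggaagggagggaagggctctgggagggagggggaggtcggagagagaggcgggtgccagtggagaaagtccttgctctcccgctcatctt
All 4 genes were lower at acute 24 h, with the values given by family further on. Each of the stretches holds at least 1 GC box, which Sp1-type factors are known to bind, and none holds the TEAD core GGAATG, the AP-1 letters TGANTCA or the E-box CACGTG on either strand. Over all 74 member promoters, cut to the same length, 70.3% held a GC box, beside 53.8% of the 14868 promoters of tested genes and 32.7% of all 32851 promoters. The other 3 motifs were no more common among members than among promoters of tested genes, at 9.46% against 11.1% for TEAD, 4.05% against 4.80% for AP-1 and 5.41% against 7.90% for the E-box. The members' promoters had a median GC content of 64.4%, beside 52.4% over all promoters. That of the promoters of tested genes was not computed, and the part of GC content in the share with a GC box was not tested.

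Total counts ran from 6314801 to 13052838 per library. The 4 chronic 14 d libraries and replicates 1 and 2 of chronic 24 h and chronic 72 h held at most 7580709 counts, and every other library at least 10792560. A list of 10 HSC markers, among them Lrat and Reln, summed to 20766 to 27277 CPM (counts scaled to a common library size, here with TMM factors) in healthy libraries and 7328 to 17818 CPM in injured ones. Markers of other liver cells were present and moved with the groups. The 10 sinusoidal endothelial markers summed to 164 to 503 CPM in healthy, 78.0 to 107 in acute 24 h, 51.6 to 150 in acute 72 h and 408 to 623 CPM in chronic 14 d libraries. The 10 macrophage markers summed to 120 to 535 CPM in healthy and 3912 to 10115 CPM in acute 7 d libraries, and Marco was at 0 in all healthy libraries. The 8 hepatocyte markers summed to 511 to 3382 CPM in healthy, 57.5 to 286 in acute 24 h and 1516 to 7480 CPM in chronic 14 d libraries. The 5 mesothelial cell and portal fibroblast markers summed to 11.7 to 26.9 CPM in healthy, 61.0 to 102 in acute 72 h and 65.3 to 130 CPM in chronic 24 h libraries. Among them Cd34 went from a mean of 14.7 CPM in healthy to 108 CPM at chronic 72 h. The means of the others were at most 6.34 CPM at chronic 72 h. The 5 cholangiocyte markers summed to 4.35 to 20.9 CPM in healthy and 55.1 to 142 CPM in chronic 72 h libraries. Most of that sum was Sox9, whose mean went from 12.3 to 78.6 CPM. Krt19, Krt7, Epcam and Cftr had means of at most 3.45 CPM at chronic 72 h. Of 4 cholangiocyte markers tested there, 1 was higher and 3 were not called. The part of these cells in members that rose was not tested. The Schwann cell marker Sox10 was at 0 in all injured groups.

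In healthy HSCs the most abundant member per length of exon was Ntn1, the secreted netrin that binds Unc5 and DCC receptors. Its level was 205 ± 48 CPM per kb (SD, n = 4), and no healthy library of the next member reached its lowest value. Ephb4, a receptor for ephrin-B2, followed at 68.4 ± 12.7 CPM per kb and Efnb1, an ephrin-B ligand, at 66.2 ± 11 CPM per kb, with ranges that overlapped. Efna5, an ephrin-A ligand, stood at 47.2 ± 10.6 CPM per kb, and below it neighbours in the order overlapped down to the 20th member. Sema6d, a membrane semaphorin that binds plexin-A1, was 5th at 34.8 ± 20.7 CPM per kb, and its healthy libraries read 40.7, 475, 472 and 484 CPM, replicate 1 standing far below the others. The acute 7 d libraries of Sema6d read 25.2, 308, 222 and 286 CPM, again with replicate 1 far below. Its acute 24 h libraries read 685, 643 and 854 CPM, above every healthy one, but Sema6d was called in no comparison with healthy. At chronic 24 h Efnb1 led the order at 99.3 ± 25.6 CPM per kb, above every library of Ntn1, which was next at 61.2 ± 10.6 CPM per kb.

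**Figure D1:**
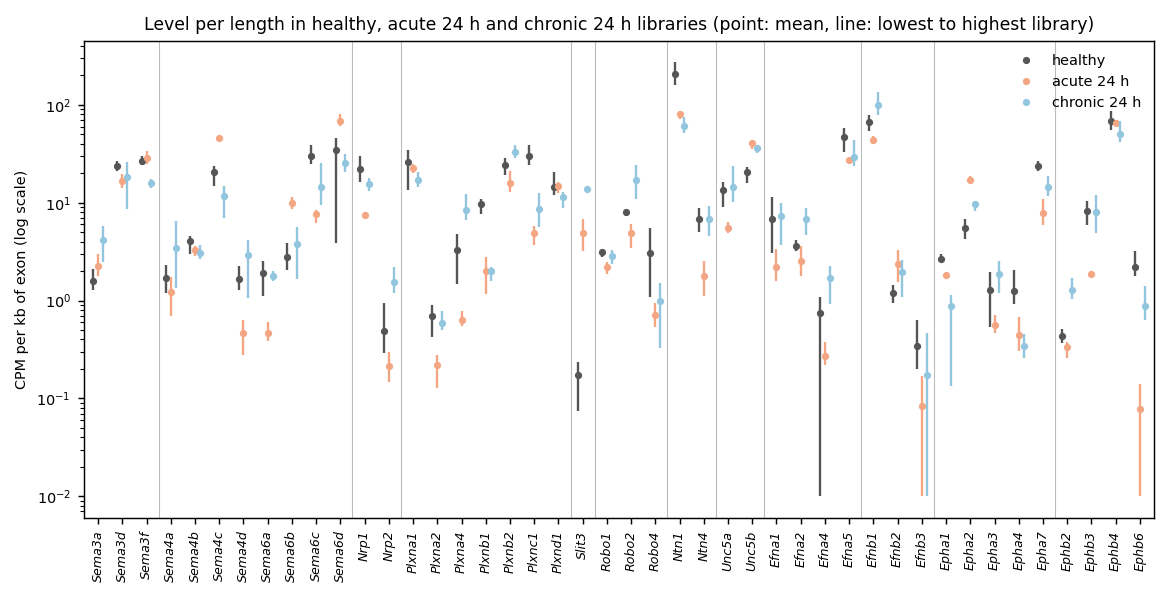
Level per length of exon, in CPM per kb on a log scale, of the members that reached a mean of 1 CPM per kb in any group. Points are means and lines run from the lowest to the highest library of the healthy (n = 4), acute 24 h (n = 3) and chronic 24 h (n = 4) groups, with values under 0.01 drawn at 0.01. Ntn1 stands highest in healthy libraries, at 158 to 272 CPM per kb.

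The members were counted as called where the adjusted p was below 0.05 over all 18758 genes tested and the change above 2-fold. By this rule 42 of the 56 were called in at least 1 of the 6 comparisons with healthy, 17 only higher, 20 only lower and 5 in both directions. The same count was not made over all genes, so that these numbers have no background and are not read as a trait of the members. A difference among the 7 groups at adjusted p below 0.05 was found for 48 of the 56, beside 56.0% of all genes. The 6 comparisons share the same 4 healthy libraries, so that their counts do not stand apart from each other.

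The 24 h after the acute injury was the time with the most members called. There 21 of 56 were lower, which is 37.5%, beside a background of 12.5% of all genes lower, and 4 were higher, which is 7.14% beside 9.41%. The median log2 fold change was -1.19 over the 56 members and -0.12 over all genes. Receptors made up 14 of the 21 lower members, out of 27 receptors tested, and ligands 7, out of 29. By family, 5 of 9 plexins, 3 of 5 EphB and 3 of 5 EphA receptors, both netrins and 4 of 12 membrane semaphorins were lower, and 0 of 6 secreted semaphorins were called. At the same time 7 of 10 sinusoidal endothelial and 7 of 8 hepatocyte markers were lower, as were 3 of 10 HSC markers. Of the 10 endothelial markers 1, Lyve1, was higher, as were 3 of 3 neutrophil markers tested. The part of those cells in the members' counts was not tested.

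At acute 72 h 9 members were lower (16.1%, beside 4.33% of all genes) and 4 higher (7.14%, beside 8.23%). With acute 72 h replicate 3 or replicate 4 left out, 1 was higher, Slit3. Here 8 of 10 endothelial and 4 of 10 HSC markers were lower, and their part in the members' counts was not tested. At acute 7 d the balance was turned, with 9 higher (16.1%, beside 9.23%) and 2 lower (3.57%, beside 5.64%). The 2 lower members were Plxnb1 and Ntn1, and the count rose to 4 without healthy replicate 1 or acute 7 d replicate 2 and to 5 without healthy replicate 4. At this time 7 of 10 macrophage, 3 of 5 T and NK cell and 3 of 3 B cell markers were higher. So were 3 of 3 neutrophil, 2 of 2 dendritic cell and 2 of 4 mesothelial cell and portal fibroblast markers tested. Of the HSC markers 5 of 10 were lower. The part of these cells in the members' counts was not tested.

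At chronic 24 h 11 members were higher (19.6%, beside 11.2%) and 9 lower (16.1%, beside 8.11%), where 19.3% of all genes were called in either direction. Chronic 72 h gave 11 higher (19.6%, beside 7.88%) and 7 lower (12.5%, beside 4.20%), the latter falling to 2, Plxnb1 and Sema3d, without healthy replicate 3 or without chronic 72 h replicate 4. Chronic 14 d gave 8 higher (14.3%, beside 4.55%) and 1 lower (1.79%, beside 1.17%), where 5.72% of all genes were called in either direction. That count of 8 was the least firm of these. It fell to 1 without healthy replicate 1, to 3 without healthy replicate 2 and to 5 without healthy replicate 3, chronic 14 d replicate 2 or chronic 14 d replicate 3. It fell to 2 with depth class as a term in the fit. Chronic 14 d held none of the deeper libraries, and the term was estimated from chronic 24 h and 72 h, the groups with libraries of both depths. The 1 lower member, Plxna1, was not called without healthy replicate 2 or 3 or without chronic 14 d replicate 2, 3 or 4, nor with DESeq2's size factors.

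Markers of other cells moved in the chronic groups as well. At chronic 24 h and at chronic 72 h 6 of 10 macrophage markers were higher than healthy and 6 of 10 HSC markers lower. Pdgfrb, 1 of the 10 HSC markers, was higher at chronic 24 h, and 4 of 10 endothelial markers were lower there. Of 4 mesothelial cell and portal fibroblast markers tested, 2 were higher at chronic 24 h and 3 at chronic 72 h. The macrophage markers summed to 456 to 3188 CPM at chronic 24 h, 870 to 2266 CPM at chronic 72 h and 737 to 1677 CPM at chronic 14 d. At chronic 14 d 3 of 10 macrophage markers, 3 of 3 B cell markers and 3 of 3 neutrophil markers tested were higher, and 2 of 10 HSC markers lower. The part of these cells in the members' counts was not tested.

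**Figure D2:**
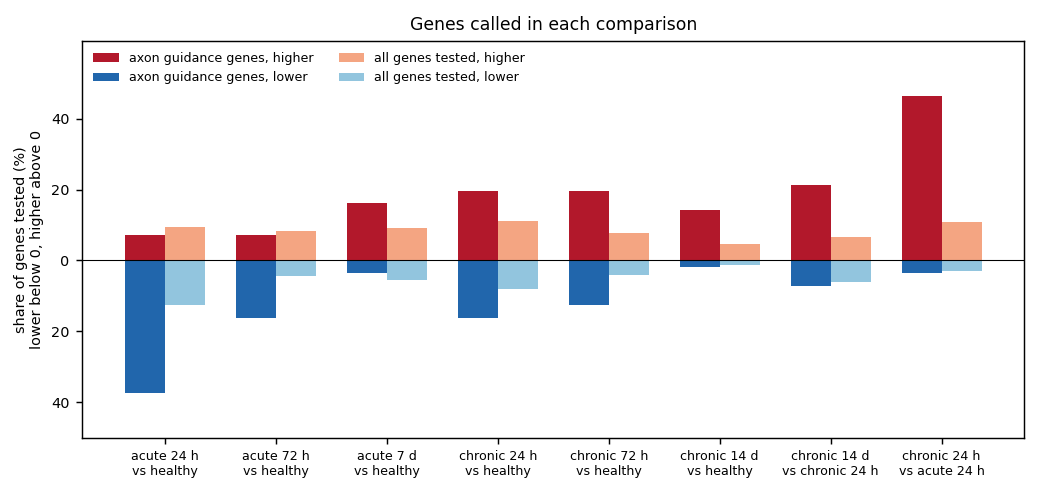
Share of the 56 axon guidance genes and of all 18758 genes tested that were called higher (above 0) or lower (below 0), in percent, in each of the 8 comparisons. The lower share of members is largest at acute 24 h, 37.5% beside 12.5%, and the higher share is largest for chronic 24 h against acute 24 h, 46.4% beside 10.9%.

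Among the Slits, secreted ligands of the Robo receptors, Slit3 was higher than healthy in all 6 injured groups, the only member of which this held. Slit3 lies at chromosome 11, 35121224 to 35708507 (GRCm38, plus strand). Its healthy libraries read 0.453, 0.975, 1.43 and 1.39 CPM. After the acute injury they read 41.1, 19.4 and 27.8 CPM at 24 h, 10.9, 17.9, 5.45 and 5.81 CPM at 72 h and 65.7, 88.4, 25.5 and 9.96 CPM at 7 d. After the chronic injury they read 77.2, 80.9, 90.1 and 88.2 CPM at 24 h, 5.73, 8.57, 8.56 and 5.88 CPM at 72 h and 2.97, 5, 8.18 and 3.23 CPM at 14 d. Every injured library lay above every healthy one, chronic 24 h being the highest and most even group and acute 7 d the most uneven. At chronic 24 h Slit3 was 78-fold higher than healthy (log2 fold change 6.28 ± 0.61, adjusted p = 7.22e-08, edgeR's quasi-likelihood test, error as SE). At acute 24 h the rise was 27.3-fold (log2 fold change 4.77 ± 0.60, adjusted p = 2.44e-06), and at chronic 14 d 4.53-fold (log2 fold change 2.18 ± 0.57, adjusted p = 0.0174). The chronic 14 d call was lost without healthy replicate 1 or 2 or chronic 14 d replicate 3, with log2 fold changes of 1.84 to 2.37 over the libraries left out, and with depth class as a term. The other 5 calls held with any 1 library left out. From chronic 24 h to chronic 14 d Slit3 fell 17.2-fold (log2 fold change -4.11 ± 0.54, adjusted p = 1.01e-05).

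Slit2, the other Slit tested, stayed low, at 1.4 ± 0.88 CPM in healthy and 2.7 ± 1.22 CPM in chronic 14 d libraries (SD, n = 4), and was called in none of the 8 comparisons. Of the Robo receptors, Robo1 was called in none either. Its level was 51.5 ± 4.57 CPM in healthy libraries, and the 95% interval of its log2 fold change was -0.53 to 0.29 at chronic 24 h. Robo2 read 135, 134, 146 and 126 CPM in healthy, 250.5, 241, 329 and 321 CPM in acute 72 h and 284, 187, 260.1 and 416 CPM in chronic 24 h libraries. Both injured groups lay wholly above healthy, 2.11-fold (log2 fold change 1.08 ± 0.33, adjusted p = 0.0216) and 2.12-fold (log2 fold change 1.09 ± 0.33, adjusted p = 0.015). The calls were close to the 2-fold line. They were lost without acute 72 h replicate 3 or 4 (log2 fold changes 0.99 to 1.15 over the libraries left out) and without chronic 24 h replicate 4 (0.85 to 1.24).

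Robo4, a Robo known mainly from endothelium, moved the other way. It read 5.8, 11.9, 29.2 and 18.6 CPM in healthy, 4.99, 2.86 and 3.6 CPM in acute 24 h, 7.79, 3.72, 0.813 and 1.01 CPM in acute 72 h and 6.3, 7.96, 1.75 and 4.8 CPM in chronic 24 h libraries. Healthy libraries were spread widely and overlapped acute 72 h and chronic 24 h. The log2 fold changes were -2.10 ± 0.69 (adjusted p = 0.0217), -2.30 ± 0.63 (0.0103) and -1.67 ± 0.62 (0.0422), and Robo4 was 4.33-fold higher at chronic 14 d than at chronic 24 h (log2 fold change 2.12 ± 0.62, adjusted p = 0.0165). The acute 24 h call was lost without healthy replicate 3 or acute 24 h replicate 2 or 3 (-2.38 to -1.66), and the chronic 24 h call without healthy replicate 3 or 4 or chronic 24 h replicate 1, 3 or 4 (-1.95 to -1.23). Both were lost with no filter on low counts and with higher-depth libraries alone. The recovery call was lost without chronic 24 h replicate 3 (1.82 to 2.40) and with depth class as a term. The endothelial marker list stood beside it, 7 of 10 lower and 1 higher at acute 24 h, 8 of 10 lower at acute 72 h and 4 of 10 lower at chronic 24 h. At chronic 14 d 7 of 10 were higher than at chronic 24 h. No endothelial marker was at 0 in any group mean, and the part of endothelial cells in the Robo4 values was not tested.

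**Figure D3:**
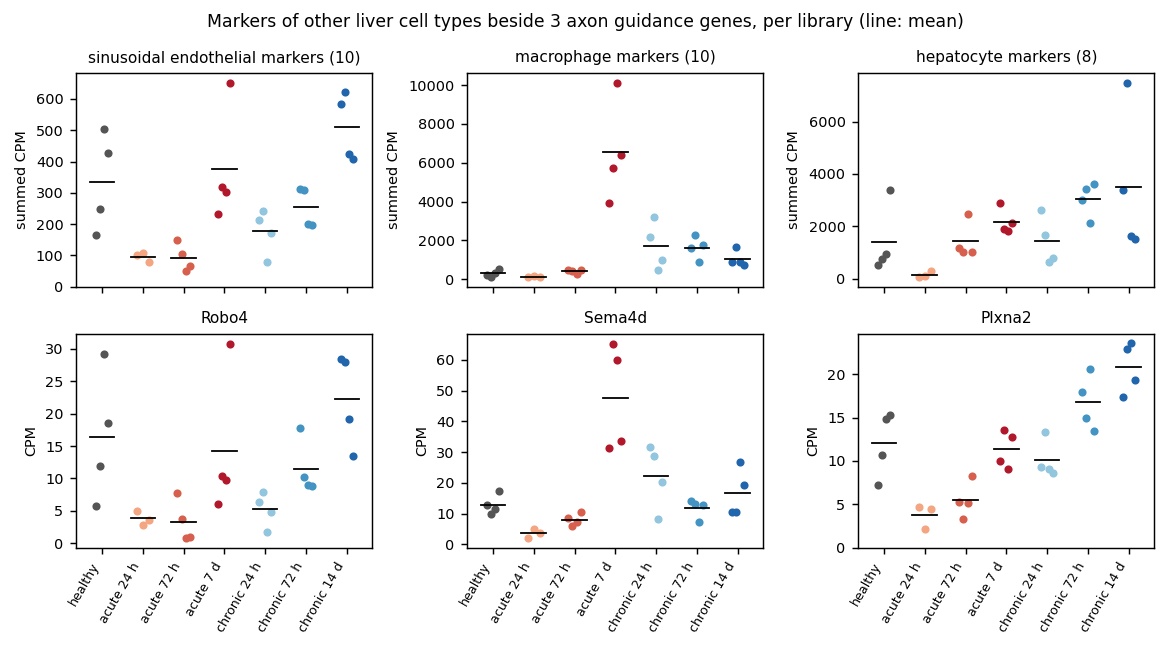
Summed CPM per library of the sinusoidal endothelial, macrophage and hepatocyte marker lists (upper row, with the number of genes in each list), and CPM per library of Robo4, Sema4d and Plxna2 (lower row), lines marking group means. The endothelial sum and Robo4 are both low at acute 24 h and 72 h, and the macrophage sum and Sema4d both peak at acute 7 d.

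Both netrins tested were lower at acute 24 h, and Ntn1, the most abundant member, was lower in 5 of 6 comparisons with healthy. Ntn1 lies at chromosome 11, 68209364 to 68400823 (minus strand). Healthy libraries read 1184, 1258, 1705 and 994 CPM. Acute 24 h libraries read 534, 455 and 544 CPM, acute 72 h 655, 505, 563 and 498 CPM and acute 7 d 435, 498, 559 and 522 CPM, every one below every healthy library. Chronic 24 h libraries read 471, 326, 401 and 339 CPM, chronic 72 h 715, 571, 717 and 335 CPM and chronic 14 d 956, 753, 834 and 859 CPM. Chronic 24 h was thus the lowest group, and chronic 72 h replicate 4 stood below its group. Ntn1 was 2.51-fold lower at acute 24 h (log2 fold change -1.33 ± 0.22, adjusted p = 5.82e-05), 3.35-fold lower at chronic 24 h (log2 fold change -1.74 ± 0.20, adjusted p = 6.41e-07) and 2.2-fold lower at chronic 72 h (log2 fold change -1.14 ± 0.20, adjusted p = 0.000244). The chronic 72 h call was lost without that replicate 4 or healthy replicate 3 (-1.25 to -0.94), and the other 4 calls held. At chronic 14 d the change was -0.60 ± 0.20 with an adjusted p of 0.0606, which did not pass, and from chronic 24 h to 14 d Ntn1 rose 2.21-fold (log2 fold change 1.15 ± 0.20, adjusted p = 0.000202).

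Ntn4, a netrin of basement membranes, fell at acute 24 h and was above healthy late in the chronic series. It read 21.9, 18.9, 33.1 and 28 CPM in healthy, 6.32, 4.17 and 9.57 CPM in acute 24 h, 34.3, 24.2, 17 and 27.2 CPM in chronic 24 h, 59.7, 45.7, 78.2 and 44.1 CPM in chronic 72 h and 51.4, 50.1, 59.8 and 50.2 CPM in chronic 14 d libraries. Acute 24 h lay wholly below healthy, and chronic 72 h and 14 d wholly above it. The changes were 3.81-fold lower at acute 24 h (log2 fold change -1.93 ± 0.32, adjusted p = 6.58e-05), 2.23-fold higher at chronic 72 h (log2 fold change 1.16 ± 0.28, adjusted p = 0.00446) and 2.07-fold higher at chronic 14 d (log2 fold change 1.05 ± 0.28, adjusted p = 0.019). The last was lost without healthy replicate 1 or 2 (0.93 to 1.2) and with depth class as a term.

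The Unc5 genes, receptors through which netrins repel cells, differed from each other. Unc5b was the most abundant of them at chronic 24 h, at 225 ± 20.9 CPM beside 128 CPM in healthy, a log2 fold change of 0.81 ± 0.24 that stayed under 2-fold. Its highest group by mean was acute 24 h, at 220, 264 and 275 CPM, and it was called in no comparison with healthy. Unc5b was 2.57-fold lower at chronic 14 d than at chronic 24 h (log2 fold change -1.36 ± 0.25, adjusted p = 0.000326). Unc5a was 2.45-fold lower at acute 24 h (log2 fold change -1.29 ± 0.25, adjusted p = 0.000346). Its exons overlap those of Hk3 on the other strand, and as the strand setting of the counting is not given in the sources used here, reads of the pair cannot be told apart. Unc5c was near its detection limit in healthy libraries, at 0, 0.878, 0.421 and 0 CPM, and read 2.59, 3.85, 2.58 and 2.3 CPM at acute 7 d and 3.47, 2.29, 4.98 and 6.11 CPM at chronic 72 h. It was higher at acute 7 d (log2 fold change 3.10 ± 0.81, adjusted p = 0.00724), chronic 72 h (log2 fold change 3.68 ± 0.82, adjusted p = 0.0024) and chronic 14 d (log2 fold change 2.78 ± 0.81, adjusted p = 0.0345), every library of the 3 groups lying above every healthy one. The chronic 14 d call was lost without healthy replicate 1 or 3 or chronic 14 d replicate 2, 3 or 4 (2.37 to 3.87), with depth class as a term and with no filter on low counts. Exons of Unc5c overlap those of Gm15688 on the other strand.

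**Figure D4:**
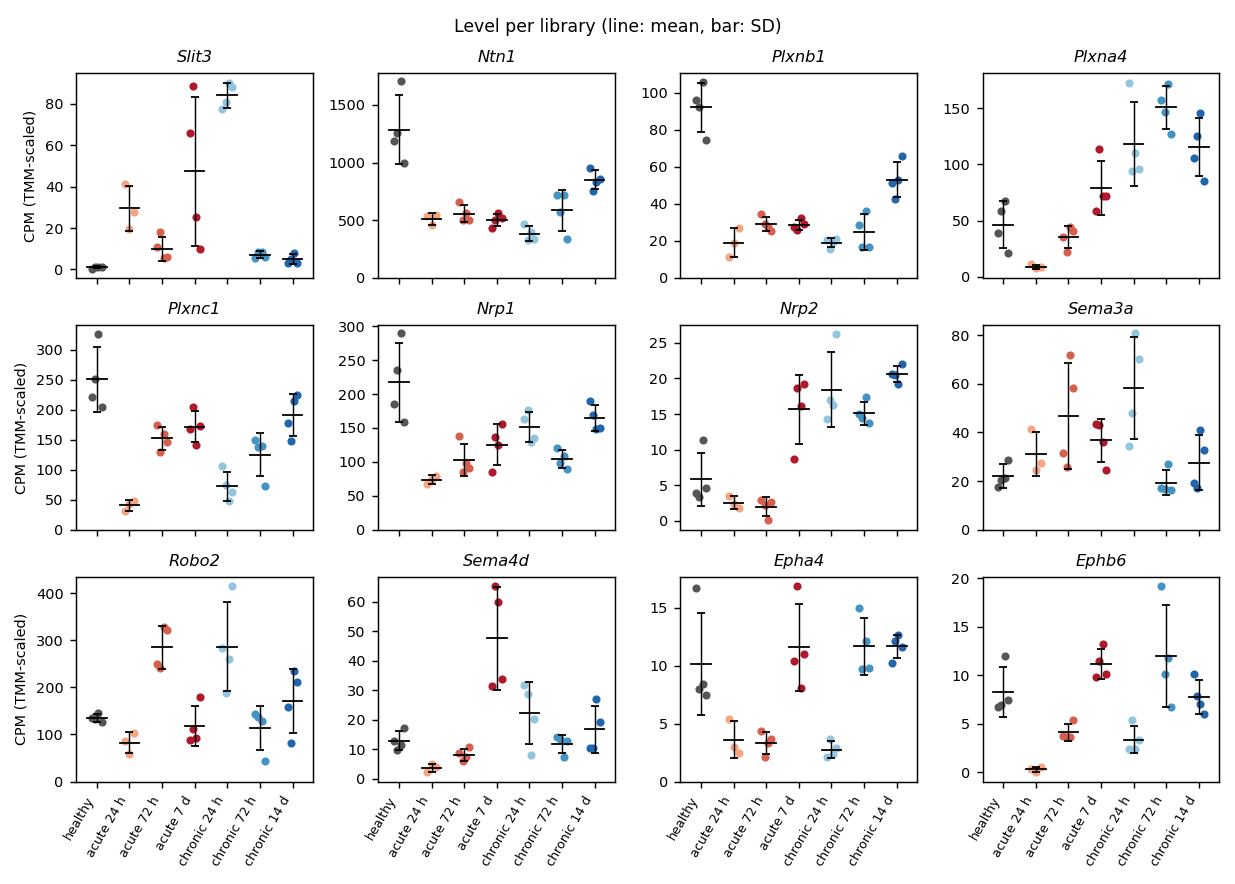
CPM per library of 12 members in the 7 groups, with the mean as a line and the SD as a bar. Slit3 peaks at chronic 24 h (77.2 to 90.1 CPM), Ntn1 and Plxnb1 are highest in healthy libraries, and Plxna4 and Nrp2 are above healthy throughout the chronic groups.

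Plexins are the receptors that semaphorins act through, and they were the family with the most members lower at acute 24 h. Plxnb1, the receptor of Sema4d, was lower in 5 of 6 comparisons. It read 96.2, 92.1, 106 and 74.4 CPM in healthy, 11.2, 19.1 and 27 CPM in acute 24 h, 34.7, 28.9, 27.6 and 25.4 CPM in acute 72 h and 27.6, 25.8, 32.2 and 29.1 CPM in acute 7 d libraries. In the chronic groups it read 20.4, 15.4, 19.5 and 21.1 CPM at 24 h, 28.8, 16.9, 36.4 and 16.6 CPM at 72 h and 51, 42.5, 53.2 and 65.8 CPM at 14 d. No injured library reached the lowest healthy one. Exons of Plxnb1 overlap those of Gm7628 on the other strand, and reads of the pair cannot be told apart. Plxnb1 was 4.83-fold lower at acute 24 h (log2 fold change -2.27 ± 0.27, adjusted p = 1.5e-06) and 4.82-fold lower at chronic 24 h (log2 fold change -2.27 ± 0.25, adjusted p = 2.81e-07), and all 5 calls held with any 1 library left out. At chronic 14 d the log2 fold change of -0.79 ± 0.24 stayed under 2-fold (adjusted p = 0.0368), after a rise of 2.78-fold from chronic 24 h (log2 fold change 1.48 ± 0.24, adjusted p = 0.000114).

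Plxna4, a receptor for class 3 and class 6 semaphorins, was lower 24 h after the acute injury and higher after the chronic one. It read 39.3, 58.2, 67.4 and 20.8 CPM in healthy, 11, 7.73 and 8.25 CPM in acute 24 h, 35.3, 21.8, 44.3 and 40.8 CPM in acute 72 h and 58.4, 114, 71.8 and 71.6 CPM in acute 7 d libraries. The chronic libraries read 173, 94.2, 109.8 and 95.5 CPM at 24 h, 158, 146, 172 and 127 CPM at 72 h and 106, 125, 146 and 84.9 CPM at 14 d, all of them above the highest healthy library. Plxna4 was 5.17-fold lower at acute 24 h (log2 fold change -2.37 ± 0.35, adjusted p = 1.44e-05), 2.54-fold higher at chronic 24 h (log2 fold change 1.35 ± 0.30, adjusted p = 0.00126) and 3.25-fold higher at chronic 72 h (log2 fold change 1.70 ± 0.30, adjusted p = 0.000266). At chronic 14 d it was 2.49-fold higher (log2 fold change 1.32 ± 0.30, adjusted p = 0.00635). These calls held with any 1 library left out, and the one at chronic 14 d was lost with depth class as a term. Exons of Plxna4 overlap the antisense gene Plxna4os3, and reads of the pair cannot be told apart.

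Plxnc1, the receptor of Sema7a, read 221, 251, 327 and 205 CPM in healthy, 30.9, 43.3 and 47.8 CPM in acute 24 h, 106, 74, 47.3 and 62.2 CPM in chronic 24 h and 150.1, 138, 139.6 and 72.3 CPM in chronic 72 h libraries. The groups did not overlap with healthy, and chronic 72 h replicate 4 was well below its group. Plxnc1 was 6.17-fold lower at acute 24 h (log2 fold change -2.63 ± 0.28, adjusted p = 2.87e-07) and 3.48-fold lower at chronic 24 h (log2 fold change -1.80 ± 0.24, adjusted p = 4.59e-06). The 2.01-fold fall at chronic 72 h (adjusted p = 0.00368) was lost without that library or healthy replicate 3 (log2 fold changes -1.10 to -0.81), with DESeq2's size factors and with no filter on low counts. Exons of Plxnc1 overlap those of Gm48718 on the same strand. Plxna2 fell 3.17-fold at acute 24 h (log2 fold change -1.66 ± 0.31, adjusted p = 0.00024), from 7.25, 10.6, 14.8 and 15.3 to 4.72, 2.17 and 4.48 CPM, with no overlap. Plxna1 was lower at chronic 72 h (log2 fold change -1.07 ± 0.22, adjusted p = 0.00128) and chronic 14 d (log2 fold change -1.04 ± 0.22, adjusted p = 0.00426), with a healthy replicate 4 of 123 CPM that lay within the range of those groups. The chronic 72 h call of Plxna1 was lost without healthy replicate 2 or 3 or chronic 72 h replicate 4 (-1.28 to -0.91), and exons of Plxna1 overlap those of Gm26811 on the other strand. Plxnb3 was lower at acute 24 h, at 3 counts or fewer per library there, by at least 7.83-fold against a floor of 3 counts per library (adjusted p = 0.024), a call lost without acute 24 h replicate 1 or 3. Plxnb2 and Plxnd1 were called in no comparison with healthy, with 95% intervals at acute 24 h of -1.11 to -0.09 and -0.43 to 0.44 on the log2 scale.

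The 2 neuropilins, co-receptors of class 3 semaphorins and of vascular endothelial growth factor (VEGF), parted in the chronic groups. Nrp1 read 185, 236, 291 and 158 CPM in healthy, 66.7, 74.8 and 79.5 CPM in acute 24 h, 164, 176, 129 and 136 CPM in chronic 24 h and 121, 99, 109 and 90.1 CPM in chronic 72 h libraries, and was 2.95-fold lower at acute 24 h (log2 fold change -1.56 ± 0.22, adjusted p = 8.65e-06). Its falls at acute 72 h (log2 fold change -1.08 ± 0.20, adjusted p = 0.000326) and chronic 72 h (log2 fold change -1.05 ± 0.20, adjusted p = 0.000439) lay close to the 2-fold line. They were lost without healthy replicate 3, and without acute 72 h replicate 2 (-1.25 to -0.91) or chronic 72 h replicate 4 (-1.18 to -0.88) in turn. Nrp2 was lower in level, at 3.99, 3.41, 11.3 and 4.59 CPM in healthy, 3.56, 2.34 and 1.76 CPM in acute 24 h and 3.01, 2.25, 0.0813 and 2.71 CPM in acute 72 h libraries. It then read 8.65, 18.6, 16.2 and 19.2 CPM at acute 7 d, 14.2, 17, 16.2 and 26.2 CPM at chronic 24 h, 14.9, 14.4, 17.4 and 13.7 CPM at chronic 72 h and 20.7, 20.5, 19.2 and 22 CPM at chronic 14 d. Healthy replicate 3 was the highest of its group and overlapped acute 7 d. Nrp2 was 3.16-fold higher at chronic 24 h (log2 fold change 1.66 ± 0.47, adjusted p = 0.00877), a call that held with any 1 library left out, and 3.53-fold higher at chronic 14 d (log2 fold change 1.82 ± 0.47, adjusted p = 0.016), which was lost without healthy replicate 1 or 2 (1.63 to 2.36) and with depth class as a term. The fall at acute 72 h (log2 fold change -1.53 ± 0.49, adjusted p = 0.0261) was lost without healthy replicate 3 (-1.79 to -0.99) or with higher-depth libraries alone, and the rises at acute 7 d (1.24 to 1.97) and chronic 72 h (1.19 to 1.91) were lost with 6 and 7 of the 8 libraries left out in turn and with higher-depth libraries alone, the latter also with no filter on low counts.

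Secreted semaphorins signal mainly through neuropilin and plexin-A complexes. Sema3a, a repellent of growth cones, read 17.7, 20.6, 21.2 and 28.9 CPM in healthy, 31.5, 25.6, 71.9 and 58.2 CPM in acute 72 h and 34.3, 47.8, 80.8 and 70.3 CPM in chronic 24 h libraries. The rise at chronic 24 h was 2.64-fold without overlap (log2 fold change 1.40 ± 0.34, adjusted p = 0.00261) and held with any 1 library left out. At acute 72 h replicates 3 and 4 were high and replicates 1 and 2 near healthy, and the call (log2 fold change 1.08 ± 0.33, adjusted p = 0.022) was lost without healthy replicate 1, 2 or 3 or acute 72 h replicate 3 or 4 (0.78 to 1.29). Sema3d, at 204 ± 21 CPM in healthy, was 2.64-fold lower at chronic 72 h (log2 fold change -1.40 ± 0.27, adjusted p = 0.000647). Its chronic 24 h libraries were split, at 74.9, 131, 205 and 226 CPM, the lower values in the shallower libraries. Sema3f, at 26.8 ± 2.74 CPM per kb, was called in no comparison with healthy.

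Membrane semaphorins were lower, higher or not called by member at acute 24 h. Sema6c, a class 6 member, read 149, 184, 229 and 157 CPM in healthy and 36.8, 50.3 and 49.1 CPM in acute 24 h libraries and was 3.96-fold lower (log2 fold change -1.98 ± 0.28, adjusted p = 7.79e-06), followed by a 2.22-fold difference at acute 72 h (log2 fold change -1.15 ± 0.24, adjusted p = 0.00134). Sema6a, which binds plexin-A2 and plexin-A4, fell from 9.79, 13.6, 22.5 and 20.7 to 3.38, 3.56 and 5.27 CPM, 4.08-fold (log2 fold change -2.03 ± 0.33, adjusted p = 5.19e-05), and was still 2.95-fold lower at acute 72 h (log2 fold change -1.56 ± 0.29, adjusted p = 0.000451). The endothelial markers were low at the same times, as given for Robo4, and their part here was not tested. Sema6b and Sema4c were the members of this family that rose at acute 24 h. Sema6b went from 9.61, 10.6, 15.5 and 8.15 to 45.1, 34 and 38.6 CPM (log2 fold change 1.84 ± 0.36, adjusted p = 0.000385) and Sema4c, a ligand of plexin-B2, from 92.5, 110.2, 108 and 68.5 to 219, 196 and 212 CPM (log2 fold change 1.14 ± 0.25, adjusted p = 0.000893). Neither overlapped, and both calls held with any 1 library left out. Sema4g, another class 4 member, fell from 1.54, 2.54, 2.19 and 3.9 to 0, 0.608 and 0.439 CPM, 7.06-fold (log2 fold change -2.82 ± 0.80, adjusted p = 0.00842). Exons of Sema4c overlap those of D430040D24Rik on the other strand, and reads of the pair cannot be told apart.

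Sema4d, the ligand of plexin-B1 and a molecule also known from T cells, moved both ways. Its libraries read 12.8, 9.75, 11.4 and 17.2 CPM in healthy, 2.14, 4.86 and 3.78 CPM in acute 24 h, 31.4, 65.2, 59.8 and 33.6 CPM in acute 7 d and 31.8, 28.8, 8.16 and 20.2 CPM in chronic 24 h. Acute 24 h lay wholly below healthy and acute 7 d wholly above, 3.55-fold lower (log2 fold change -1.83 ± 0.44, adjusted p = 0.00219) and 3.71-fold higher (log2 fold change 1.89 ± 0.38, adjusted p = 0.000849). Both calls held with any 1 library left out. Sema4a, another class 4 member, read 6.53, 10.1, 8 and 12.4 CPM in healthy and 23.1, 25.1, 20.2 and 21.5 CPM in acute 7 d libraries (log2 fold change 1.28 ± 0.39, adjusted p = 0.0187), a call lost without healthy replicate 1 or 3 (1.14 to 1.45). Macrophage markers were also at their highest at acute 7 d, 7 of 10 called higher, and 3 of 5 T and NK cell markers were called higher, their sum being 0.927 to 3.81 CPM in healthy and 4.27 to 12.3 CPM in acute 7 d libraries. The part of those cells in Sema4d and Sema4a was not tested. Sema5a, a membrane semaphorin with thrombospondin repeats, rose from 3.17, 3.51, 6.91 and 3.55 CPM to 9.44, 13.7, 18.2 and 24.6 CPM at chronic 24 h, 3.85-fold (log2 fold change 1.95 ± 0.32, adjusted p = 6.71e-05), with no overlap. Sema7a, the ligand of plexin-C1, had no read in any healthy library and read 0, 1.24, 0.702 and 1.92 CPM at chronic 24 h and 0.4, 1, 0.389 and 0.392 CPM at chronic 72 h. Against a floor of 3 counts per healthy library these are at least 3.58-fold and 2.02-fold higher, at adjusted p of 0.0107 and 0.0372, and the chronic 72 h call was lost when any 1 healthy library or chronic 72 h replicate 4 was left out, by DESeq2's own test, with no filter on low counts and with depth class as a term.

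**Figure D5:**
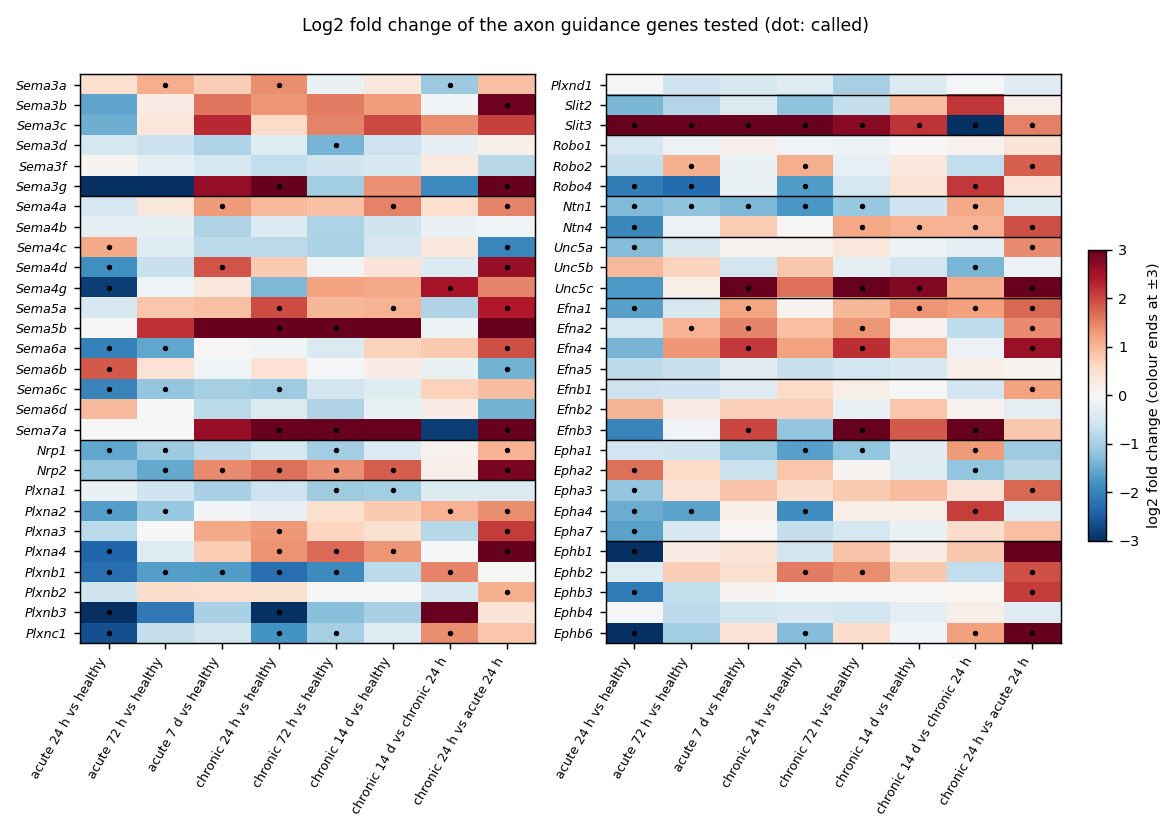
Fitted log2 fold change of each of the 56 members tested, as colour ending at 3 in either direction, in the 8 comparisons, with a dot where the gene was called. Slit3 is dotted in every column, and the acute 24 h column holds 21 dots on the lower side and 4 on the higher. For genes at or near 0 in a group, such as Sema7a, the colour depends on the small count the fit adds.

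Ephrins and Ephs signal between cells that touch. Among the ephrin-A ligands, Efna2 read 7.52, 8, 8.76 and 6.85 CPM in healthy, 17.3, 10.7, 16.9 and 19.2 CPM in acute 72 h, 18, 25.7, 21.7 and 20.4 CPM in acute 7 d, 15.3, 14.1, 22.2 and 25.9 CPM in chronic 72 h and 7.83, 8.16, 8.54 and 9.55 CPM in chronic 14 d libraries. The first 3 injured groups lay wholly above healthy and chronic 14 d overlapped it. Efna2 was 2.75-fold higher at acute 7 d (log2 fold change 1.46 ± 0.25, adjusted p = 0.000174) and 2.49-fold higher at chronic 72 h (log2 fold change 1.32 ± 0.25, adjusted p = 0.000557), calls that held with any 1 library left out. The acute 72 h call (log2 fold change 1.04 ± 0.25, adjusted p = 0.00395) was lost without healthy replicate 4 or acute 72 h replicate 3 or 4 (0.94 to 1.19) and by DESeq2's own test. Efna4 was higher at acute 7 d (log2 fold change 2.13 ± 0.53, adjusted p = 0.0052) and chronic 72 h (log2 fold change 2.22 ± 0.53, adjusted p = 0.0046), at 1.45, 1.76, 1.52 and 0 CPM in healthy, 4.93, 5.25, 5.55 and 5.06 CPM in acute 7 d and 6.27, 3.71, 6.54 and 5.48 CPM in chronic 72 h libraries, but its exons overlap those of 4731419I09Rik on the other strand. Efna1 varied widely within healthy, at 5.62, 9.07, 14.5 and 21.1 CPM, and read 3.03, 6.16 and 2.9 CPM at acute 24 h, 36, 22.3, 28.5 and 27.4 CPM at acute 7 d and 43.1, 43.2, 25.1 and 14 CPM at chronic 14 d. It was lower at acute 24 h (log2 fold change -1.64 ± 0.44, adjusted p = 0.00589), though with overlap, and higher at acute 7 d (log2 fold change 1.18 ± 0.38, adjusted p = 0.0281) and chronic 14 d (log2 fold change 1.32 ± 0.39, adjusted p = 0.0347). The acute 24 h call held with any 1 library left out. The acute 7 d call was lost without healthy replicate 1 or 2 or acute 7 d replicate 1 (0.94 to 1.55), and that of chronic 14 d without healthy replicate 1, 2 or 3 or chronic 14 d replicate 1 or 2 (1.07 to 1.69), with depth class as a term and with no filter on low counts. Efnb3, an ephrin-B low in healthy at 0.635, 0.975, 0.758 and 1.99 CPM, read 12.4, 6.14, 9.73 and 8.23 CPM at chronic 72 h, 8.28-fold higher (log2 fold change 3.05 ± 0.74, adjusted p = 0.00486), and this call held with any 1 library left out. Efna5 and Efnb1, the abundant ephrins, were called in no comparison with healthy, with intervals of -1.21 to -0.36 and -1.11 to -0.11 on the log2 scale at acute 24 h.

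EphA receptors went in opposite directions at acute 24 h. Epha2, a receptor widely found in epithelia, rose from 31.8, 24.8, 19.7 and 26.1 to 78.2, 75.9 and 87.6 CPM, 3.15-fold (log2 fold change 1.65 ± 0.24, adjusted p = 1.22e-05). Epha7 fell from 230.2, 261, 209 and 243 to 58, 63.8 and 109 CPM, 3.06-fold (log2 fold change -1.61 ± 0.23, adjusted p = 8.85e-06). Neither pair of groups overlapped, and both calls held with any 1 library left out. Epha4, a receptor for ephrins of both classes, read 16.7, 8, 8.43 and 7.45 CPM in healthy, 5.43, 2.95 and 2.46 CPM in acute 24 h, 4.34, 2.08, 3.33 and 3.64 CPM in acute 72 h, 2.1, 3.71, 2.37 and 2.88 CPM in chronic 24 h and 10.3, 12.1, 12.6 and 11.6 CPM in chronic 14 d libraries. The first 3 injured groups were wholly below healthy and chronic 14 d overlapped it. Epha4 was 2.8-fold lower at acute 24 h (log2 fold change -1.49 ± 0.33, adjusted p = 0.00129) and 3.66-fold lower at chronic 24 h (log2 fold change -1.87 ± 0.31, adjusted p = 6.29e-05), and 4.21-fold higher at chronic 14 d than at chronic 24 h (log2 fold change 2.07 ± 0.31, adjusted p = 4.47e-05). Epha1 read 11.8, 10.1, 10.1 and 9.88 CPM in healthy and 4.5, 4.39, 0.526 and 4.32 CPM in chronic 24 h libraries, replicate 3 far below the others. It was 3.08-fold lower (log2 fold change -1.62 ± 0.42, adjusted p = 0.00454), a call that held with any 1 library left out, and its exons overlap those of Zyx on the other strand, so that reads of the pair cannot be told apart.

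Of the EphB receptors, Ephb6, which lacks kinase activity, fell furthest at acute 24 h among members above the floor of 3 counts. It read 6.71, 6.92, 12 and 7.45 CPM in healthy, 0.356, 0 and 0.527 CPM in acute 24 h, 3.72, 3.64, 3.66 and 5.42 CPM in acute 72 h and 9.87, 11.5, 13.2 and 10.1 CPM in acute 7 d libraries. The acute 24 h libraries were close to 0 and the acute 7 d ones back within or above the healthy range. Ephb6 was 27.2-fold lower at acute 24 h (log2 fold change -4.76 ± 0.54, adjusted p = 6.35e-07). At chronic 24 h it read 2.4, 5.35, 2.37 and 3.28 CPM, 2.48-fold lower (log2 fold change -1.31 ± 0.38, adjusted p = 0.0115), a call lost without healthy replicate 3 (-1.62 to -1.07). Ephb3 fell from 45.3, 69.2, 65.2 and 39 to 12.4, 11.9 and 13.2 CPM, 4.38-fold (log2 fold change -2.13 ± 0.33, adjusted p = 2.66e-05). Ephb2 rose in the chronic groups, from 5.26, 5.66, 6.4 and 4.59 CPM to 21.4, 13.9, 13.1 and 15.8 CPM at 24 h (log2 fold change 1.55 ± 0.28, adjusted p = 0.000178) and 16.4, 14.4, 16.7 and 10.1 CPM at 72 h (log2 fold change 1.39 ± 0.28, adjusted p = 0.000943). These Ephb3 and Ephb2 groups lay apart from healthy, and the calls held with any 1 library left out. Ephb4, the most abundant Eph, whose exons overlap those of Zan on the other strand, was called in no comparison, with a log2 fold change of -0.07 at acute 24 h (95% interval -0.48 to 0.35) and -0.78 at acute 72 h (-1.17 to -0.40).

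Repeated injury was set against the first injury at the same 24 h. Of the 56 members, 26 were higher at chronic 24 h than at acute 24 h (46.4%, beside 10.9% of all genes) and 2 were lower (3.57%, beside 3.05%), with 13 of 27 receptors and 13 of 29 ligands higher. The median log2 difference was 1.13 over the members and 0.01 over all genes. Plxna4 showed 11, 7.73 and 8.25 CPM against 173, 94.2, 109.8 and 95.5 CPM, a 13.1-fold difference (log2 fold change 3.72 ± 0.37, adjusted p = 2.62e-07). Ephb6 was 11-fold higher (log2 fold change 3.45 ± 0.53, adjusted p = 5.93e-05), Nrp2 7.2-fold (log2 fold change 2.85 ± 0.55, adjusted p = 0.000665) and Sema4d 6.15-fold (log2 fold change 2.62 ± 0.45, adjusted p = 0.000184). Sema4c, at 64.6, 68.4, 32.4 and 51.1 CPM in chronic 24 h, and Sema6b, at 22.2, 18.1, 6.67 and 12.6 CPM, were the 2 lower members, by 3.87-fold (log2 fold change -1.95 ± 0.25, adjusted p = 6.19e-06) and 2.65-fold (log2 fold change -1.41 ± 0.36, adjusted p = 0.00676). Slit3 was 2.86-fold higher (log2 fold change 1.51 ± 0.53, adjusted p = 0.0431), but this call was lost whichever of the 7 libraries was left out (1.29 to 1.83), with higher-depth libraries alone, with depth class as a term and with no filter on low counts. With the higher-depth libraries alone, which leave chronic 24 h replicates 3 and 4, 16 members were higher and 2 lower. Of the markers of other cells, 5 of 10 for macrophages, 5 of 8 for hepatocytes and 3 of 10 for endothelium were higher than at acute 24 h. So were 3 of 3 B cell, 2 of 5 T and NK cell and 1 of 2 dendritic cell markers tested. The same held for 2 of 4 cholangiocyte and 2 of 4 mesothelial cell and portal fibroblast markers tested. Of 10 HSC markers 3 were lower and 1 higher. The part of these cells in the members' counts was not tested.

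In the 14 d after the last chronic injection, 12 members rose against chronic 24 h (21.4%, beside 6.65%) and 4 fell (7.14%, beside 6.11%). Those that rose included Robo4, Epha4, Plxnb1, Plxnc1 and Ntn1, with the values given above, and those that fell were Slit3, Unc5b, Epha2 and Sema3a. Epha2 fell 2.29-fold, to 12.8, 20.5, 17.2 and 29.1 CPM from 38.2, 47.8, 48.8 and 47 CPM (log2 fold change -1.19 ± 0.23, adjusted p = 0.000517). The Sema3a call (log2 fold change -1.08 ± 0.33, adjusted p = 0.0215) was lost without chronic 24 h replicate 3 or 4 or chronic 14 d replicate 1 or 2 (-1.29 to -0.86) and with depth class as a term. The 12 became 7 without chronic 24 h replicate 3, and 7 with depth class as a term. At the same time 7 of 10 endothelial, 3 of 8 hepatocyte and 4 of 10 HSC markers rose, and their part was not tested.

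The partners of these receptors inside and beside the cell were read from lists of other pathway genes. The shares of all genes called, 9.41% higher and 12.5% lower at acute 24 h and 11.2% higher and 8.11% lower at chronic 24 h, are the background for each list. Of 10 further netrin, RGM and FLRT genes tested, out of 15 listed, 1 was higher and 1 lower at acute 24 h, near the background, and 3 higher and 1 lower at chronic 24 h. Adora2b, an adenosine receptor reported as a netrin-1 partner, stood at 0.594 CPM in healthy and 23.8 CPM in chronic 24 h libraries (log2 fold change 5.31 ± 0.74, adjusted p = 7.59e-06). Flrt2, which binds Unc5 receptors, went from 3.38 to 11.6 CPM (log2 fold change 1.78 ± 0.27, adjusted p = 1.76e-05). Flrt3 was also higher (log2 fold change 2.96 ± 0.93, adjusted p = 0.0173) and Adgrl3, a latrophilin that binds FLRT proteins, was lower (log2 fold change -3.27 ± 0.74, adjusted p = 0.00165). Neo1, neogenin, which binds netrins and RGM proteins, was lower at acute 24 h (log2 fold change -1.14 ± 0.28, adjusted p = 0.00292).

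Of 15 Slit and Robo signalling genes, 2 were higher and 1 lower at acute 24 h (beside 9.41% and 12.5% of all genes), and 5 higher and 1 lower at chronic 24 h (beside 11.2% and 8.11%). Sdc4, a heparan sulphate proteoglycan of the class that aids Slit binding, went from 116 CPM in healthy to 1075 CPM at acute 24 h (log2 fold change 3.22 ± 0.33, adjusted p = 2.04e-07) and 555 CPM at chronic 24 h (log2 fold change 2.26 ± 0.31, adjusted p = 5.72e-06). Sdc1, a syndecan of the same class, was higher at chronic 24 h (log2 fold change 2.48 ± 0.47, adjusted p = 0.000325). Pak1, a kinase that acts below Robo and Rac, was lower at acute 24 h (log2 fold change -1.69 ± 0.43, adjusted p = 0.00356).

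Of 27 semaphorin signalling genes tested, out of 29 listed, 2 were higher and 4 lower at acute 24 h (beside 9.41% and 12.5% of all genes), and 3 higher and 4 lower at chronic 24 h (beside 11.2% and 8.11%). Mical2, which oxidises actin and belongs to the family that acts below plexins, was higher at acute 24 h (log2 fold change 2.77 ± 0.41, adjusted p = 1.88e-05) and chronic 24 h (log2 fold change 2.66 ± 0.40, adjusted p = 1.81e-05), at 124 and 115 CPM beside 18.2 CPM in healthy. Rnd1, a small GTPase that binds plexin-A1, was higher at acute 72 h (log2 fold change 3.13 ± 0.39, adjusted p = 4.81e-06) and chronic 72 h (log2 fold change 1.57 ± 0.37, adjusted p = 0.00407). Kdr, the VEGF receptor that partners neuropilins and is an endothelial gene, was lower at acute 24 h (log2 fold change -3.91 ± 0.70, adjusted p = 0.000154), when the endothelial markers were low too. Ptprc, the leukocyte gene CD45, was higher at acute 7 d (log2 fold change 3.00 ± 0.40, adjusted p = 8.6e-06). Higher at that time were also 7 of 10 macrophage, 3 of 5 T and NK cell and 3 of 3 B cell markers. The same held for 3 of 3 neutrophil and 2 of 2 dendritic cell markers tested. The part of endothelial cells in Kdr and of leukocytes in Ptprc was not tested.

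Of 18 ephrin and Eph signalling genes tested, 1 was higher and 0 lower at acute 24 h by edgeR, and 3 higher and 0 lower at chronic 24 h. Ngef, ephexin-1, an exchange factor that acts below EphA receptors, stood at 0.813 CPM in healthy and 24.3 CPM at chronic 24 h (log2 fold change 4.87 ± 0.69, adjusted p = 9.56e-06). Inppl1, SHIP2, a lipid phosphatase that binds Epha2, was higher at acute 24 h (log2 fold change 1.06 ± 0.24, adjusted p = 0.00142) and chronic 24 h (log2 fold change 2.42 ± 0.23, adjusted p = 5.79e-08). Of 21 growth cone cytoskeleton genes tested, 4 were higher and 4 lower at acute 24 h, and 4 higher and 2 lower at chronic 24 h. Enah, an actin elongation factor, was higher at both times (log2 fold change 2.30 ± 0.31, adjusted p = 5.65e-06, and log2 fold change 2.09 ± 0.30, adjusted p = 9.44e-06), as was Limk1, the kinase of cofilin (log2 fold change 2.28 ± 0.29, adjusted p = 2.79e-06, and log2 fold change 1.52 ± 0.27, adjusted p = 0.00015). Stmn1, a microtubule destabiliser also known from dividing cells, was lower at acute 24 h (log2 fold change -2.16 ± 0.51, adjusted p = 0.00207) and higher at acute 72 h (log2 fold change 3.33 ± 0.46, adjusted p = 1.48e-05). Medians of these 5 lists at acute 24 h lay between -0.52 and 0.27 on the log2 scale, beside -1.19 for the 56 members and -0.12 over all genes.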

How the data were processed

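Hepatic stellate cells sorted from 27 mouse liver preparations in 7 groups were measured by bulk RNA-seq. By the study's own account, 75 bp single-end reads were trimmed, aligned with STAR to GRCm38 and passed to StringTie, and the authors deposited raw counts per gene. Versions, the strand setting and the annotation release are not given in the sources used here. Each library is a separate experiment by the study's methods.

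The counts were used as deposited. Of 53379 genes, 18758 passed edgeR's filterByExpr by group. All 27 libraries entered 1 fit of group means by edgeR's quasi-likelihood test (edgeR 4.0.16, robust, TMM scaling, R 4.3.3). Called means a Benjamini-Hochberg adjusted p below 0.05 over all genes tested and a change above 2-fold. Errors of log2 fold changes are SE, and intervals are 95%. Levels between genes are CPM per kb of merged exons in GENCODE M21, in which 53274 gene IDs were found. Members at 3 counts or fewer in every library of a group were given as bounds. Depth, from 6314801 to 13052838 counts per library, limits values near 3 counts, and such limits cover counting error only. The steps were also run on counts simulated with known changes from the model and spread fitted to these data. Such a run cannot show whether that model holds for the real counts.

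Alternatives were DESeq2 (1.42.0) and its size factors, filters on low counts, calls without the fold minimum, the higher-depth libraries alone, a block for the replicate number, and leaving out each library in turn. Depth class as a term was chosen after seeing the data. The members and lists were chosen with earlier results of these data known. Values in every library were set to be given for members called in at least 2 of 6 comparisons with healthy at a mean of 10 CPM or more in a group, and those of other members were added after their values were seen. Promoters were those of the first 4 members by number of calls that had 1 RefSeq promoter free of their own exons, chromosome 18 left out.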

Additional observations from a re-analysis of the deposited data

Results flagged for a closer look

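In groups of 4 libraries, a library was picked out where its gap to the nearest of the others was too large a part of the group's range by Dixon's criterion. Of 144 groups checked over 24 genes, 16 gave such a library, and chance gives about 1 in 20. The 24 genes were those set to be given in every library, so that Sema6d was not checked. In healthy mice these were replicate 3 for Nrp2 (11.3 CPM, next 4.59), Ephb6 (12.0 CPM, next 7.45) and Sema5a (6.91 CPM, next 3.55), and replicate 1 for Epha4 (16.7 CPM, next 8.43) and Epha1 (11.8 CPM, next 10.1). Chronic 72 h replicate 4 was low for Plxnc1 (72.3 CPM, next 138), Sema6a (7.60 CPM, next 13.6) and Robo2 (43.9 CPM, next 129). At the same time replicate 1 was high for Robo4 (17.7 CPM, next 10.3) and replicate 3 for Sema3a (26.9 CPM, next 17.1). Chronic 24 h replicate 3 was low for Epha1 (0.526 CPM, next 4.32), and replicate 2 was high for Plxna2 (13.3 CPM, next 9.29). Acute 72 h replicate 4 was high for Ephb6 (5.42 CPM, next 3.72) and replicate 1 for Ephb2 (15.6 CPM, next 7.59). Chronic 14 d replicate 3 was high for Ntn4 (59.8 CPM, next 51.4) and replicate 2 for Epha1 (14.2 CPM, next 6.75).

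For 5 members the call was higher than healthy in a group and lower in another, and these groups were set against each other directly in edgeR's quasi-likelihood test, with contrasts chosen after seeing the data. Plxna4 was higher at chronic 72 h than at acute 24 h by 4.07 ± 0.38 on the log2 scale (adjusted p = 3.40e-08), Ntn4 by 3.09 ± 0.34 (adjusted p = 3.20e-07). Sema4d was higher at acute 7 d than at acute 24 h by 3.72 ± 0.47 (adjusted p = 1.86e-06). Efna1 was higher at chronic 14 d than at acute 24 h by 2.96 ± 0.46 (adjusted p = 2.80e-05), and Nrp2 higher at chronic 14 d than at acute 72 h by 3.35 ± 0.51 (adjusted p = 6.77e-05).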

How the results depend on the processing

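Of 130 counts of members under an alternative setting, 118 stayed within 1.5 times the reported count, and of 140 calls of single members in the 8 comparisons none was reversed under any setting tried. DESeq2's own test kept 134 of the 140, its size factors in edgeR 138, no filter on low counts 123, and depth class as a term 121. Without the fold minimum, lower members became 10 at acute 7 d, 15 at chronic 24 h, 11 at chronic 72 h, 2 at chronic 14 d and 4 for chronic 24 h against acute 24 h. A filter at a mean of 1 CPM gave 4 lower at acute 7 d. At chronic 14 d, DESeq2's size factors gave 0 lower, no filter on low counts 5 higher, and depth class as a term 2 higher and 2 lower, while that term gave 7 higher at chronic 14 d than at chronic 24 h. Higher-depth libraries alone gave 16 higher at chronic 24 h than at acute 24 h, and no value for chronic 14 d, whose libraries were all of lower depth. The cause of these changes was not tested, apart from the settings that by construction test fewer samples or drop a threshold.

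With 1 library left out, 133 of 151 counts stayed within 1.5 times. The counts higher and lower ran from 4 to 5 and 18 to 22 at acute 24 h, 1 to 4 and 7 to 9 at acute 72 h, 6 to 9 and 2 to 5 at acute 7 d, 8 to 11 and 6 to 9 at chronic 24 h, 9 to 11 and 2 to 10 at chronic 72 h, and 1 to 7 and 0 to 1 at chronic 14 d. They ran from 7 to 13 and 3 to 5 for chronic 14 d against chronic 24 h, and from 20 to 26 and 2 to 2 for chronic 24 h against acute 24 h. Of the 140 calls, 89 held in every run with a library left out in which the gene was tested. Among them, the Sema7a call at chronic 24 h against healthy was tested in only 6 runs, the gene failing the filter in the others.

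The replicate numbers were not taken to pair the libraries, each of which is a separate experiment by the study's methods. Deviations of same-numbered libraries correlated at -0.182 to 0.208 (median 0.0133), beside -0.343 to 0.344 (median -0.00672) for different numbers. As a hint from the data and not the design, 12 of 27 libraries correlated best with their own number. With the replicate block, 132 of the 140 calls were kept, with 5 higher and 21 lower at acute 24 h, and 24 higher and 2 lower at chronic 24 h against acute 24 h. The 8 calls not kept were those of Efnb3 at acute 7 d, Sema3g and Sema5b at chronic 24 h, Nrp2 at chronic 72 h, Efna1 and Unc5c at chronic 14 d, and Sema3b and Sema7a at chronic 24 h against acute 24 h.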
